A study of Rattus norvegicus with 12 samples.

Results

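The probes described here are those whose hepatic signal was higher than in TXOX rats after growth hormone (GH), both without and with estradiol (E2), and which stayed near the TXOX level after E2 alone. They were chosen from the deposited table of log2 ratios (treated rat over TXOX), in which a group value is the mean of the non-missing arrays of that treatment. A probe was a member when it had 3 or more values in each treatment, a group value of at least 0.58 (a 1.5-fold rise) in TXOXGH and in TXOXE2GH, and a group value between -0.3 and 0.3 in TXOXE2. Of 22163 rows of the table, 11478 had enough values, and 29 of these were members. Because the ratios to TXOX chose the members, those ratios are a description. Where calls and intervals from a fit to the same arrays are counted beside them, nothing is read from those counts.

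All animals were male Sprague-Dawley rats aged 3 months that were hypothyroid, through methimazole in the drinking water, and orchiectomized (OX). The TXOX rats carried both conditions too and received vehicle alone. TXOXE2 rats received E2 benzoate at 50 µg/kg subcutaneously on 5 days of each week over 27 days. TXOXGH rats received oil vehicle, with GH at 0.3 mg/kg/day added in the last 7 days as a morning and an evening injection. TXOXE2GH rats received E2 throughout, with GH in the same 7 days. Whole-liver RNA of 4 treated animals per treatment was hybridized on 12 two-colour arrays of 70-mer rat oligonucleotides, with the treated sample in Cy5 and a TXOX sample in Cy3 on every array. Dyes were not swapped, so in a ratio to TXOX a dye effect on a probe cannot be told apart from the treatment, whereas it cancels between treatments. The animals were a model without testicular androgen or normal thyroid hormone, and no intact rat was on these arrays.

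GH reaches hepatocytes through the GH receptor, the kinase JAK2 and the transcription factor STAT5, which raises targets such as the gene of insulin-like growth factor I and members of the SOCS family that dampen the same pathway. In rodents the pattern of GH secretion, pulsatile in males and more continuous in females, sets much of the sex difference in liver gene expression. E2 acts on the liver through its own nuclear receptor and can alter GH signalling there, and thyroid hormone is needed in the rat for the pituitary to make GH. The files and reference tables used here do not pair these probes with genes. Members are therefore described by their place in the order of the smaller of their TXOXGH and TXOXE2GH values, only the first members carry their probe identifiers, and neither roles, gene lists, cell type markers nor probe sequences are given. The labelled tissue was for the same reason not checked against marker genes, and in whole liver a change in the share of a cell type and a change in RNA per cell cannot be told apart.

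On each array, 19130 to 22346 of 27094 probe spots were unflagged. The array of TXOXE2 replicate 2 stood apart, with a median of 0.12 over the 11478 rows and quartiles of -0.18 and 0.42, against medians of -0.01 to 0.02 on the other 11 arrays. Without it the rule gave 35 members, 28 of the 29 among them, and without TXOXE2 replicate 4 it gave 22, of which 20 were among the 29.

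The group values of the members had a median of 0.85 in TXOXGH (0.58 to 3.23), 0.76 in TXOXE2GH (0.61 to 2.51) and 0.05 in TXOXE2 (-0.27 to 0.28). A rise of 2-fold or more, a log2 ratio of 1, was reached by 10 members in TXOXGH, by 6 in TXOXE2GH and by 5 in both. Most were modest, and 18 of the 29 lay between 0.58 and 1 in both GH groups. By comparison, 192 of the 11478 rows reached 0.58 in TXOXGH and 163 in TXOXE2GH, and 88 reached it in both. Of those 88 rows, 29 had TXOXE2 within the band and form the set, 33 were at 0.58 or above in TXOXE2 as well, 20 lay from 0.3 to below 0.58, and 6 lay at -0.3 or below.

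**Figure D1:**
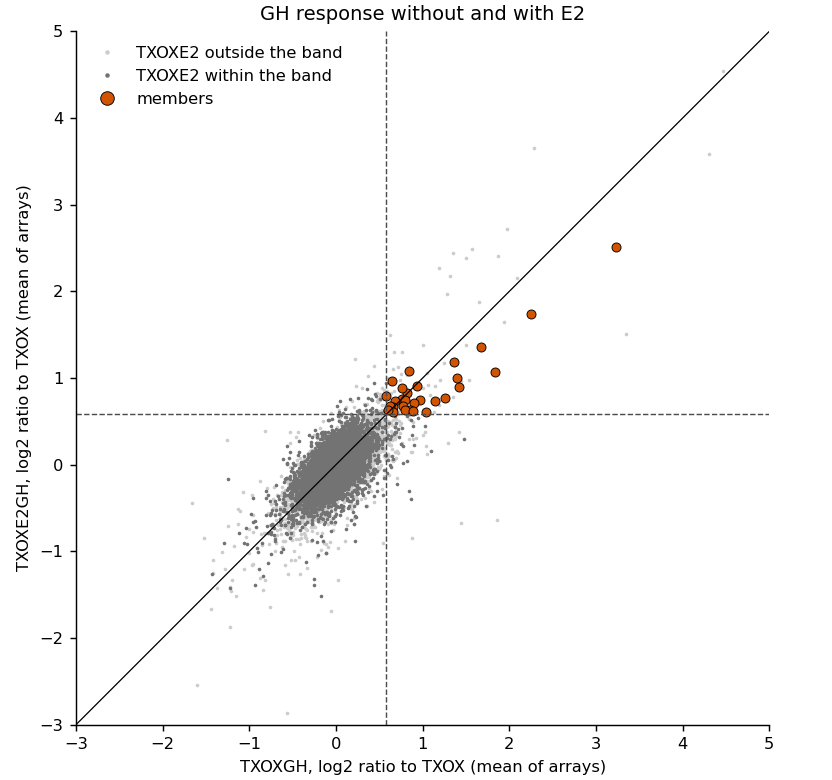
Mean log2 ratio to TXOX in TXOXGH (x axis) and TXOXE2GH (y axis) for the 11478 rows with 3 or more values in each treatment, with members in orange, other rows within the TXOXE2 band in dark grey and rows outside it in light grey. Dashed lines mark 0.58 and the solid line equality. The 29 members are among the 88 rows at or above both dashed lines, and 20 of them lie below the line of equality.

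The first member, probe Rn30016077, had log2 ratios of 3.39, 2.72, 4.54 and 2.27 on TXOXGH replicates 1 to 4, a mean of 3.23 ± 0.99 (SD, n = 4). In TXOXE2GH the values were 2.97, 2.67, 2.47 and 1.92, a mean of 2.51 ± 0.44 (SD, n = 4). In TXOXE2 they were -0.46, -0.07 and -0.11, with replicate 2 missing. All GH arrays of both treatments lay far above all TXOXE2 arrays, and the 2 GH treatments overlapped.

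The second member, probe Rn30023434, gave 2.36, 2.13, 2.95 and 1.57 in TXOXGH, a mean of 2.25 ± 0.57 (SD, n = 4). In TXOXE2GH it gave 2.51, 1.47, 1.46 and 1.51, a mean of 1.73 ± 0.52 (SD, n = 4). Of these, replicate 1 alone lay above the lowest TXOXGH array. Its TXOXE2 values of -0.20, 0.78 and 0.21 had both signs, and replicate 2 on its own was above 0.58. Without that array its TXOXE2 value was 0.00, and without TXOXE2 replicate 1 it was 0.49 and outside the band.

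The third member read 2.00, 1.67, 2.07 and 0.95 in TXOXGH and 2.27, 0.83, 1.22 and 1.12 in TXOXE2GH. The sixth read 1.62, 1.30, 1.90 and 0.75 in TXOXGH and 1.58, 0.80, 0.79 and 0.82 in TXOXE2GH. In both, TXOXGH replicate 4 was the lowest TXOXGH array and TXOXE2GH replicate 1 the highest TXOXE2GH array. The TXOXE2 values of the third member were 0.17, 0.58 and -0.06, and those of the sixth -0.09, 0.67, 0.21 and 0.32.

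The fourth member was the least even of the set. It read 2.31, 1.87, 0.75 and 0.52 in TXOXGH and 2.647, 1.198 and -0.303 in TXOXE2GH, where its SD was 1.48 (n = 3). Its TXOXE2 values of 0.36, -1.03 and 0.10 had an SD of 0.74 (n = 3), and its group value of -0.19 came from arrays on both sides of the band. Its TXOXE2GH replicate 4 lay below 0.

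The fifth member had the largest drop with E2 in the deposited table. It read 1.70, 1.42, 2.60 and 1.61 in TXOXGH, a mean of 1.83 ± 0.52 (SD, n = 4), and 1.57, 0.80, 1.37 and 0.55 in TXOXE2GH, a mean of 1.07 ± 0.48 (SD, n = 4). Its TXOXE2 values of 0.04, -0.19 and -0.13 were all within the band. The groups overlapped only through TXOXE2GH replicate 1, which lay above the lowest TXOXGH array.

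The other 23 members lay from 0.58 to 1.42 in TXOXGH and from 0.61 to 1.08 in TXOXE2GH. The eighth and eleventh had the highest TXOXGH values among them, 1.42 and 1.25, and in each a single array, replicate 3, read highest, at 2.27 and 1.93. The ninth was the highest in TXOXE2GH, where its arrays read 1.02, 1.09, 1.27 and 0.95 against 0.37, 0.68, 1.16 and 1.13 in TXOXGH. The tightest was the 19th, whose TXOXE2GH arrays read 0.69, 0.70, 0.69 and 0.64 (SD 0.03), and the last in the order read 0.73, 0.86, 0.74 and 0.86 in TXOXE2GH (SD 0.07).

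**Figure D2:**
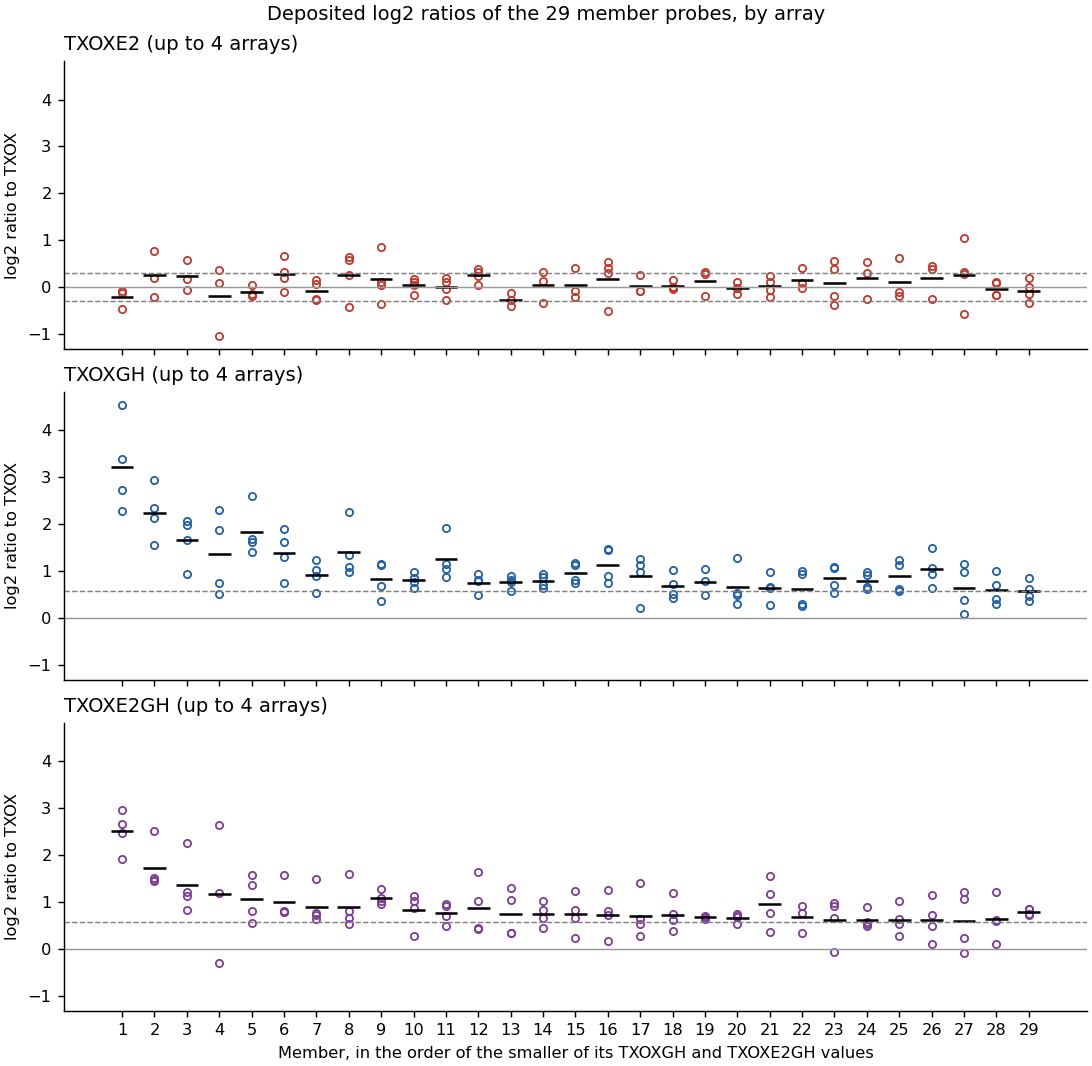
Deposited log2 ratios to TXOX of the 29 members on each array (circles), with the group value as a bar, for TXOXE2, TXOXGH and TXOXE2GH from top to bottom. Dashed lines mark the limits of the rule, -0.3 and 0.3 for TXOXE2 and 0.58 for the GH groups. Group values of TXOXE2 stay between the lines, but single TXOXE2 arrays of 20 members fall outside them.

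Across the GH arrays of both treatments the members had 229 values, of which 226 were above 0 and 177 at 0.58 or above. All 29 members were above 0 on every measured TXOXGH array, and 26 on every TXOXE2GH array. The 3 values below 0 came from the fourth, 23rd and 27th members, on TXOXE2GH replicates 4, 2 and 3. Fewer members passed the threshold on each array singly, 13 in TXOXGH, 8 in TXOXE2GH and 4 in both.

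After E2 alone the members were near TXOX as a mean more than array by array. Only 9 members had every measured TXOXE2 array within the band, 26 had TXOXE2 arrays of both signs, 7 had an array at 0.58 or above and 1 had an array at -0.58 or below. The group value was above 0 in 21 of the 29. The medians over members on TXOXE2 replicates 1 to 4 were 0.01, 0.27, 0.11 and -0.11, so 1 array was below 0. The highest of these was replicate 2, the array on which the median over all rows was also the highest. The rule bounds a mean of 3 or 4 arrays and does not show the absence of a response. Missing values were most frequent in TXOXE2, where 15 of 29 members had all 4 arrays, against 28 in TXOXGH and 27 in TXOXE2GH. In a limma fit to ratios rebuilt from the scanner intensities, the 95% interval of TXOXE2 against TXOX lay within the band in 3 of 29 members, and the intervals were 0.48 to 1.61 wide.

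The SD between arrays was larger for members than for rows in general. Its median over members was 0.29 in TXOXE2, 0.35 in TXOXGH and 0.44 in TXOXE2GH, against 0.20, 0.19 and 0.22 over the 11478 rows. The medians over members on the TXOXGH arrays were 0.88, 0.87, 1.09 and 0.82, and on the TXOXE2GH arrays 1.02, 0.68, 0.92 and 0.65. Replicate 3 was thus the highest TXOXGH array, where 23 of 29 members exceeded their group value, and replicate 1 the highest TXOXE2GH array, where 22 of 29 did. The medians over all rows on these 8 arrays stayed between -0.01 and 0.02, so the centres of the arrays did not differ in this way.

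**Figure D3:**
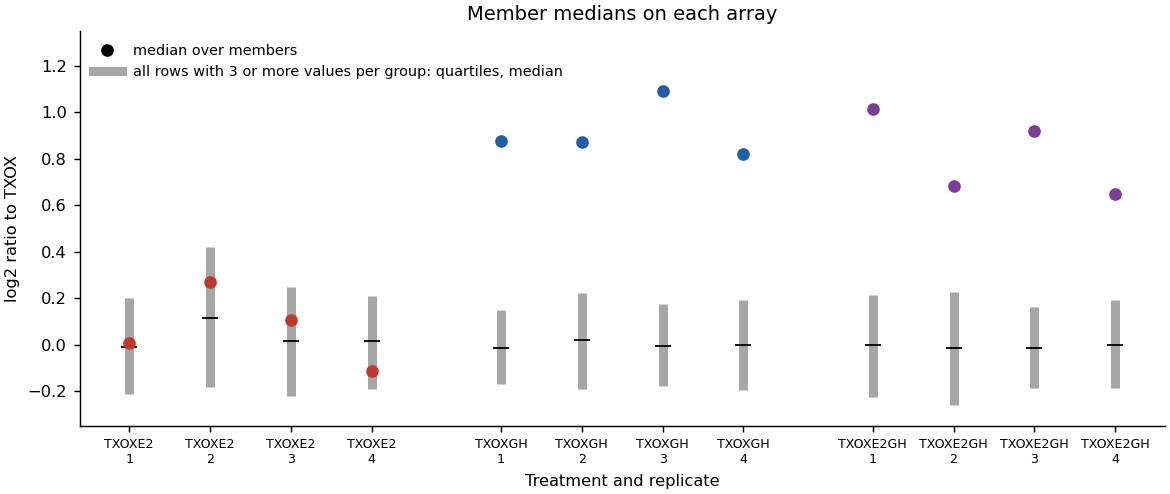
Median log2 ratio to TXOX over the members on each of the 12 arrays (points), with the quartiles and median over the 11478 rows in grey and black. The members lie at 0.65 to 1.09 on the GH arrays, above the upper quartile of all rows, and at -0.11 to 0.27 on the TXOXE2 arrays, within the quartiles.

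Rows lay close to each limit on both sides. The members nearest to 0.58 in TXOXGH were at 0.5802, 0.605 and 0.628, and the nearest rows outside, which met the other conditions, were at 0.578, 0.552 and 0.523. In TXOXE2GH the nearest members were at 0.607, 0.613 and 0.614 and the nearest rows outside at 0.558, 0.558 and 0.533. At the upper limit of TXOXE2 they were at 0.277, 0.269 and 0.266 inside and 0.328, 0.345 and 0.345 outside, and at the lower limit -0.266, -0.214 and -0.190 inside and -0.311, -0.367 and -0.383 outside. The first member was thus the second nearest to the lower limit. Rebuilt from the scanner intensities, its TXOXE2 value was -0.16 with global loess and -0.40, outside the band, with loess within printed blocks. Applied to the ratios rebuilt from the scanner intensities, the rule gave 59 members, 26 of the 29 among them.

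Non-overlap of arrays was counted beside its share over the 11478 rows, and nothing is read from it because the rule used the same values. All GH arrays of both treatments lay above all TXOXE2 arrays in 17 of 29 members, against 2.21% of the 11478 rows. TXOXGH alone did so in 23 members (5.04% of rows) and TXOXE2GH alone in 19 (5.06% of rows). In the limma fit to the scanner values, at an adjusted p under 0.05 and an estimate of at least 0.58 in size, 28 of 29 members were called higher in TXOXGH than in TXOX, against 2.08% of 20984 probes (3.41% in either direction). The same number was called higher in TXOXE2GH, against 1.59% of 18935 probes (3.8% in either direction). None of the 29 was called in TXOXE2 against TXOX, where 6.23% of 19289 probes were called in either direction and 3.1% higher, 1 member had an unadjusted p under 0.05 and 6486 probes did. The member not called in either GH group was the 27th.

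Between treatments, where the dye cancels, 16 members were called higher in TXOXGH than in TXOXE2 (limma, adjusted p under 0.05), against 0.694% of 18879 probes (1.11% in either direction). Higher in TXOXE2GH than in TXOXE2 were 11 members, against 0.413% of 17937 probes (0.708% in either direction). These differences are built from the values of the rule, and their counts depended on single arrays and on the processing. For TXOXGH the count was 8 to 10 without any 1 of TXOXE2 replicates 1, 3 and 4 or TXOXGH replicates 1, 3 and 4. Those fits tested 26 to 29 members and called 0.639% to 0.938% of all probes in either direction. For TXOXE2GH it was 3 to 6 without any 1 of the TXOXE2 arrays or TXOXE2GH replicates 1 and 2, with 26 to 29 members tested. The share of all probes called there was 0.277% to 0.632%. Under other processing the counts were 9 to 22 for TXOXGH, lowest with background subtracted or with only spots above local background and highest with a fixed replicate block. For TXOXE2GH they were 6 to 15, lowest in the deposited table and highest with the same block. That block grouped arrays by number, and the TXOXE2 arrays were not taken to pair with the GH arrays by number. The shares of all probes called in either direction were 0.839% to 1.71% for TXOXGH and 0.39% to 1.25% for TXOXE2GH. With only spots above local background, 23 members could be tested for TXOXGH and 22 for TXOXE2GH, so part of the lower count there is members not tested.

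The values with and without E2 were also set against each other. The floor of 0.58 in both GH groups removed rows whose value with E2 fell below it, so the members' differences do not answer whether the GH response in general differed with E2. In the deposited table the difference of TXOXE2GH and TXOXGH had a median of -0.17 over the members (-0.76 to 0.32), and TXOXE2GH was the lower in 20 of 29, 69.0%. Over all 11478 rows the median was 0.00 and TXOXE2GH was the lower in 51.1%. The drop was larger in the first members of the order than in the rest, but the choice of members favours this. A member with a TXOXGH value near 0.58 could drop little before leaving the set. The cut after the sixth member was not planned, and nothing is read from it. The first 6 in the order were all lower with E2, with a median of -0.46, while of the other 23 members 14 were lower and the median was -0.05. The direction of such a difference also follows from which group a row is chosen on. Of the 66 rows at 0.58 or above in TXOXGH with TXOXE2 within the band, 57 were lower in TXOXE2GH (median -0.31), and of the 60 rows so chosen on TXOXE2GH, 20 were (median 0.17). In no member did the TXOXE2GH arrays lie entirely below or entirely above the TXOXGH arrays, which happened in 2.37% and 1.83% of rows.

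In the limma fit over 12 arrays, without a replicate block, none of the 29 members was called between TXOXE2GH and TXOXGH at an adjusted p under 0.05. Nor was any of the 18695 probes tested (0%). At an unadjusted p under 0.05 there were 3 members, the first, the fifth and the eleventh, all lower with E2, beside 5.94% of all probes. The fifth member had an estimate of -0.85 with a standard error of 0.26 (limma, adjusted p = 0.597), the lowest adjusted p among the members. The first had -0.89 with a standard error of 0.36 and a 95% interval of -1.64 to -0.14 (limma, adjusted p = 0.764). The ninth and 21st, at 0.26 and 0.32, were the highest estimates, with intervals of -0.20 to 0.71 and -0.18 to 0.83.

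A difference that was not called is not a difference of 0. The 95% intervals held 0 in 26 of 29 members, but lay within 0.58 of 0 on both sides in 7 only, while 18 reached a drop of 0.58 or more and 6 a rise of that size. The widest, from -1.29 to 0.99, was that of the fourth member. The standard errors were 0.16 to 0.54, with a median of 0.23.

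Arrays of the same replicate number deviated together in TXOXGH and TXOXE2GH, so the fit was also made with the number as a block over those 8 arrays. It called 75 of 18695 probes (0.401%), 22 of them higher with E2, and none of the members. The unadjusted p was under 0.05 in 9 members, all lower with E2, beside 10.7% of all probes. The lowest adjusted p of a member was again that of the fifth (limma with the block, adjusted p = 0.0585).

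**Figure D4:**
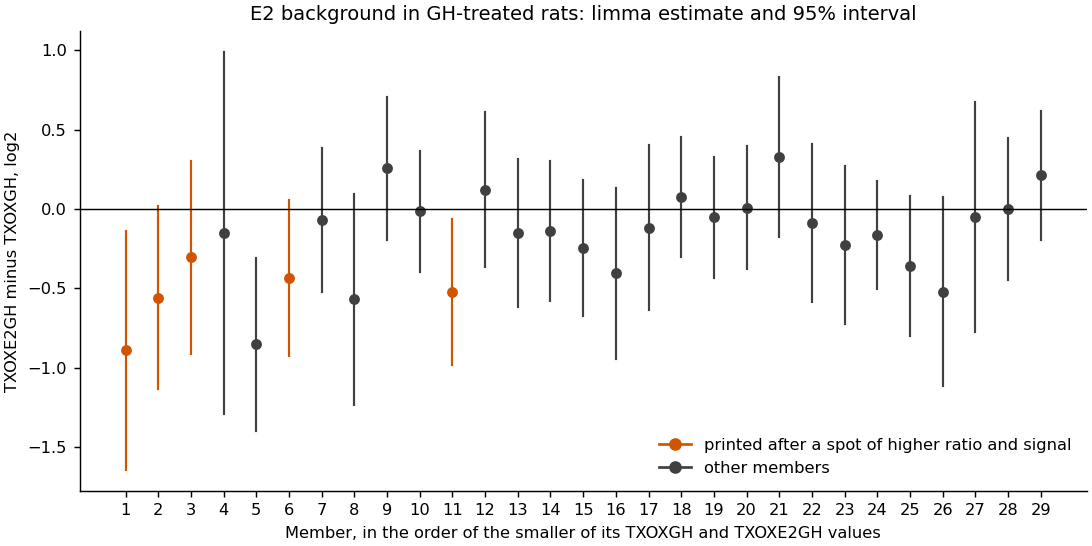
Difference of TXOXE2GH and TXOXGH on the log2 scale for each of the 29 members (points, limma estimate over 12 arrays) with its 95% interval (lines). Orange marks 5 members printed after a spot of higher ratio and signal. Of the 29 intervals 26 hold 0, and the 3 that do not belong to the first, the fifth and the eleventh members.

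The difference was also listed by TXOXE2 value among the 88 rows at threshold in both GH groups. Its median was -0.56 in the 6 rows at -0.3 or below in TXOXE2, all of them lower with E2, -0.17 in the members, -0.06 in the 20 rows from 0.3 to below 0.58 and 0.24 in the 33 rows at 0.58 or above, of which 8 were lower. These medians were not tested against each other. The floor of 0.58 bears on all these rows, and their TXOXGH values differed, with medians of 1.735, 0.85, 0.74 and 1.00 in the same order. The 6 rows, with a lowest TXOXGH value of 1.125, thus had more room to drop, and no trend is read from the medians.

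The members were neither the brightest nor the dimmest probes. Their spots lay at the 5.09th to the 94.3rd percentile of brightness among the 11478 rows, with a median at 56.0, and none had saturated pixels on any array. Of 348 member spots 345 were unflagged, yet only 3 members, the 16th, 27th and 28th, were above local background in both channels on all 12 arrays. Spots above background in both channels numbered 58 of 116 on the TXOXE2 arrays, 92 of 116 on the TXOXGH arrays and 87 of 116 on the TXOXE2GH arrays. The same counts over the 11478 rows are not given here. In Cy3, the TXOX channel, the median of spot signal over local background was 3.02 for members and 3.77 over those rows. In Cy5 it was 4.89 and 3.41. The rule required a raised ratio of Cy5 to Cy3 in the GH groups, which favours members with a higher Cy5 signal. Brightness is averaged over both channels and so includes Cy5. The 16th and 27th were the brightest, with TXOX signals of 1882 and 2121 units above background, and their values in TXOXGH were 1.14 and 0.65. The 27th spread widely for a bright spot, with TXOXGH arrays at 1.16, 0.09, 0.98 and 0.39.

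Some members lay close together on the slide. The 29 lay in 19 of 48 printed blocks, and the number of blocks expected for as many spots was not computed. Of the members, 7 sat next to another member. In the row numbered 21 within their block were 6 of 29 (20.7%), and that row number holds 5.41% of the 11478 rows. The second, the third and the sixth members were 3 adjacent spots of 1 row, the tenth and 12th members were adjacent in another, and so were the 15th and 25th. Only 0.453% of the 11478 rows lie next to a member.

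Of the 29 members, 5 stood a few spots after a spot of higher ratio and signal along their printed row. In the row of the second, the third and the sixth members, the spot in column 7 had a log2 ratio of 4.65 in TXOXGH in the scanner values and a median Cy5 signal of 65112.5 units above background, with saturated pixels on 5 arrays, and it has no TXOXGH value in the deposited table, so its scanner ratio is not exact. In TXOXE2 the same spot read -1.49, 0.53, -1.94 and -0.86 in the deposited table, with replicate 2 alone above 0. The TXOXGH ratios in columns 8 to 15 were 4.43, 3.52, 1.76, 2.47, 1.503, 0.71, 1.05 and 0.60, and the members are the spots in columns 10, 11 and 12. The spot in column 8 had saturated pixels on 2 arrays. The Cy5 signal in the same columns was 16635.5, 4306, 1849.5, 1771, 1208, 1414.5, 672.5 and 699 units. The 6 spots before column 7 had ratios from -0.08 to 0.11.

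The first and eleventh members stood in the same position. The spot directly before the first member had a TXOXGH ratio of 5.27 and a Cy5 signal of 10450.5 units, against 3.60 and 3758 for the member, and the 3 spots ahead of it had ratios of 0.17 to 0.26. The eleventh member, at 1.37, came second after a spot at 3.92, with a spot at 1.82 between them and ratios of -0.42 to -0.23 in the 6 spots before. The preceding spots at 5.27 and 3.92 read 4.15 and 3.12 in TXOXE2GH and -0.98 and -0.97 in TXOXE2. For the saturated spot at 4.65 the difference between the GH groups is not given.

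**Figure D5:**
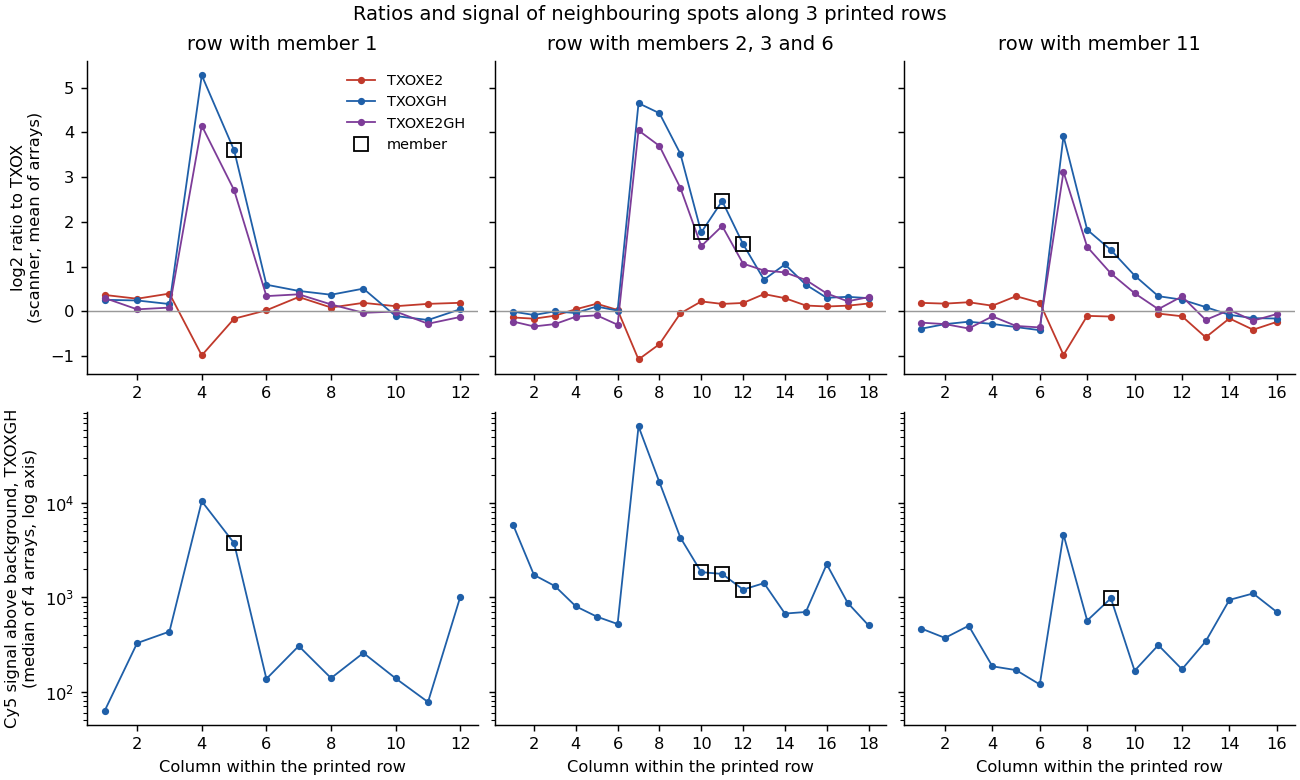
Scanner log2 ratios to TXOX (top, mean of the arrays of each treatment) and Cy5 signal above background on the TXOXGH arrays (bottom, median of 4 arrays, log axis) by column along the printed rows that hold the first member, the second, the third and the sixth members, and the eleventh member (black squares). In each row the members follow a spot at 5.27, 4.65 (saturated, not exact) or 3.92 in TXOXGH. The TXOXGH ratios of the spots before that spot stay below 0.30.

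Counted over all members, 5 of 29 had within the 4 spots before them a spot with a TXOXGH ratio of at least 1, above their own, and at least 2 times their Cy5 signal, and 0 of 29 had such a spot within the 4 spots after. Over the 11478 rows the shares were 0.601% before and 0.540% after. This count was made after the values had been seen, and the part of the neighbouring spots in the members' ratios was not tested. Without these 5, the other 24 members had medians of 0.81 in TXOXGH and 0.74 in TXOXE2GH, with highest values of 1.83 and 1.18, and 2 of them rose 2-fold or more in both. All GH arrays lay above all TXOXE2 arrays in 12 of the 24, against 2.21% of the 11478 rows. The rule used the same values, so nothing is read from this. The median difference of TXOXE2GH and TXOXGH was -0.05 in these 24, with 15 of 24 (62.5%) lower with E2, against -0.48 and 5 of 5 in the members after such a spot. Those 5 all had TXOXGH values above 1 and so more room to drop before leaving the set.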

How the data were processed

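Hepatic RNA of 12 treated rats was compared with TXOX RNA on 12 arrays, 4 per treatment. Labelling used 5 µg of total RNA. The slides were read by the authors in GenePix Pro 6.0, and the deposited scanner files hold spot and local background intensity and the percent of pixels above background or saturated. A second deposited file gives log2 ratios, treated over TXOX, after the authors' LOWESS step, in which flagged and some other spots are empty. The channel assignment rests on the channel descriptions, and which TXOX animal was on which array is not given in the sources used here. The deposited ratios correlated with the rebuilt ones by 0.890 to 0.988 per array, with slopes of 0.70 to 1.01.

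The rule was applied to the deposited table. For tests, intensities were corrected with normexp (offset 50) and global loess in limma 3.58.1 under R 4.3.3, flagged and control spots were left out, and a linear model of the 12 arrays was fitted, with 1 mean for each treatment, a variance trend and Benjamini-Hochberg adjustment over all probes with 3 or more values in each group compared. The code was tested on simulated data. Precision is limited by the 4 arrays per group. Members were ordered by the smaller of their GH values, and with no table of genes the first 2 were named by probe. The members, lists and tests were chosen with earlier results of these data known. SAM, the authors' test, was not run, and the gene lists and markers were not used.

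As a check of pairing, array deviations from their group's mean were correlated (14797 probes). Correlations were 0.306 to 0.453 between TXOXGH and TXOXE2GH arrays of the same number, and -0.175 to 0.210 between TXOXE2 and TXOXGH arrays of the same number. The highest for TXOXE2 replicates 1, 2, 3 and 4 were 0.210, 0.132, 0.342 and 0.348, with TXOXGH replicates 1, 3, 4 and 2. With TXOXE2GH the same replicates were highest, at 0.108, 0.068, 0.246 and 0.296. On the basis of the data, the numbers were therefore taken to pair TXOXGH and TXOXE2GH arrays only. Replicate blocks that included TXOXE2 arrays grouped them by number, and so not as these correlations do.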

Additional observations from a re-analysis of the deposited data

Results flagged for a closer look

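In the second, the sixth and the seventh members the highest TXOXE2GH array stood apart from the other 3 by more than Dixon's 95% limit. These arrays read 2.51 in the second member, 1.58 in the sixth and 1.5 in the seventh, and all were replicate 1. The others read 1.46 to 1.51, 0.79 to 0.82 and 0.63 to 0.76. The 24th member also passed the limit, narrowly, but through TXOXE2GH replicate 3, which read 0.90 against 0.50 to 0.57 on its other arrays. The second and sixth are neighbours on the slide and follow the same bright spot, so they are not separate observations. Chance gives about 1 in 20 groups, and 70 groups of 4 arrays were examined over the members, besides 3 groups of array medians, none of which passed the limit. Without TXOXE2GH replicate 1, and with fewer than 3 TXOXE2GH values required, the rule gave 26 members, 23 of the 29 among them. The median difference of TXOXE2GH and TXOXGH was then -0.20, lower with E2 in 24 of 29. TXOXE2GH replicate 1 was also the array on which 22 of 29 members exceeded their group value. The part of that array in these values was not tested further.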

How the results depend on the processing

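With 4 values required in each group the rule gave 15 members, and applied to ratios rebuilt from the scanner files it gave 59 with global loess (26 of the 29) and 56 with loess within printed blocks (20 of the 29). Leaving out 1 array in turn gave 22 to 35, with fewer than 3 values required in the treatment of that array. With 3 still required, some members would have dropped out for lack of values. The median over members of TXOXE2GH minus TXOXGH stayed below 0 in every alternative run. It was -0.20 to -0.08 without 1 array in turn, nearest to 0 without TXOXE2GH replicate 4 (-0.08), TXOXGH replicate 3 (-0.10), TXOXGH replicate 1 (-0.10) or TXOXE2GH replicate 2 (-0.11), and -0.11 with the median of the arrays. Without the 5 members printed after a spot of higher signal, an alternative added after seeing the data, it was -0.05.

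No member was called between TXOXE2GH and TXOXGH in any fit. Over all probes, this comparison called 3 with loess within printed blocks, 2 with a random replicate block on 12 arrays, 0 with a fixed replicate block on 12 arrays, 75 with the replicate block on 8 arrays, and 0 to 2 without 1 array in turn, 2 of them without TXOXE2GH replicate 4 and 1 without TXOXE2GH replicate 3. Against TXOX, the 716 probes called in TXOXGH became 361 without background correction, 369 with loess within printed blocks, 351 in the deposited table and 431 to 805 without 1 array in turn. The 719 called in TXOXE2GH became 468 without background correction, 450 in the deposited table and 496 to 984. The 1202 called in TXOXE2 became 791 without background correction, 2494 with background subtracted, 415 with loess within printed blocks, 665 in the deposited table and 824 to 1227. Against TXOXE2, the 209 probes called in TXOXGH became 322 with the random replicate block and 107 to 250 without 1 array in turn. The 127 called in TXOXE2GH became 215 and 225 with the fixed and random replicate block on 12 arrays, 70 with only the arrays compared and 45 to 249. Of the members, 24 to 29 were called in TXOXGH against TXOX, 22 to 28 in TXOXE2GH against TXOX and 0 in TXOXE2 against TXOX in all fits. The shares of all probes called in either direction were 1.72% to 4.19%, 2.47% to 5.76% and 2.15% to 13.1%. For TXOXE2, 23 members were tested with only spots above local background and 26 to 28 without 1 TXOXE2 array. For TXOXE2GH, 27 were tested with only spots above local background. The rule used these ratios, so nothing is read from the counts. The causes of these changes were not tested.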

Other observations

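The position after a spot of higher signal was also counted over all GH-raised rows. Of the 88 rows at 0.58 or above in both GH groups, 11 followed a spot of higher ratio and at least 2 times the Cy5 signal within 4 spots, and 0 preceded one. Of the 6 rows with TXOXE2 at -0.3 or below, 1 did so, the spot in column 8 of the row of the second member.

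The 15th and 25th members, adjacent in a row of another block, differed from the spots before them in TXOXE2 as well as in TXOXGH. Their TXOXE2 ratios in the scanner values were 0.02 and 0.07, whereas the 7 spots before them read 0.49 to 0.68. In TXOXGH the members read 1.05 and 1.08, the 7 spots before 0.18 to 0.48 and the next 2 spots 0.83 and 0.83. The tenth and 12th members, also adjacent, read 0.89 and 0.83 in TXOXGH between spots at -0.18 and -0.07, with a spot without a value before the latter.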
